A study of Mus musculus with 12 samples.

Results

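The hepatocyte lineage transcription factors examined here were 8 genes, chosen by symbol from the 30743 rows of the table: Foxa1, Foxa2, Foxa3, Cebpa, Prox1, Onecut1, Onecut2 and Tbx3. All 8 had a row and all 8 had reads. The RNA came from whole livers of male C57BL/6J fetuses at 15 ± 0.5 dpc, 6 from dams on the control diet (13.5 kcal% fat) and 6 from HFD dams (60 kcal% fat), with 12 to 14 weeks of feeding in each group. PolyA RNA of the 12 livers was sequenced. No value of a single liver and no difference between the diets is given here, because the measure used was the average log2 CPM (read counts scaled to a common library size) over all 12 livers, with both diets pooled. These averages carry no spread between livers, and which fetuses shared a dam is not stated in the labels.

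Liver fate is set in the foregut endoderm and then refined by transcription factors that act in a dense mutual network. Foxa proteins are pioneer factors that open liver enhancers, C/EBPα drives metabolic genes of maturing hepatocytes, Prox1 and Tbx3 promote the outgrowth of hepatoblasts from the liver bud, and Onecut1 (HNF6) and Onecut2 act in the choice between hepatocyte and bile duct fate. At this age the liver also houses most of the embryo's blood formation, so hepatoblast RNA is mixed with that of erythroid, myeloid, endothelial and mesenchymal cells. In such bulk RNA, fewer cells of a type and less RNA per cell cannot be told apart.

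The promoters below are shown because members of the network are known to bind one another's promoters and because these 3 genes cover the highest member and a high and a low member of 1 family. RefSeq promoters (GRCm38.p6, from 250 bases before to 50 bases after the start) were matched for 6 of the 8 members, 9 promoters in all. Capitals mark a FOXA match (TGTTTAC), an Onecut match (ATTGAT) or a TATA box (TATAAA) on either strand, and the motifs do not overlap one another in these 3 sequences. The Cebpa promoter lies at chr7:35119043-35119342 on the plus strand, that of Foxa1 at chr12:57546062-57546361 on the minus strand, and the most upstream one of Foxa2 at chr2:148046920-148047219 on the minus strand.
Cebpa: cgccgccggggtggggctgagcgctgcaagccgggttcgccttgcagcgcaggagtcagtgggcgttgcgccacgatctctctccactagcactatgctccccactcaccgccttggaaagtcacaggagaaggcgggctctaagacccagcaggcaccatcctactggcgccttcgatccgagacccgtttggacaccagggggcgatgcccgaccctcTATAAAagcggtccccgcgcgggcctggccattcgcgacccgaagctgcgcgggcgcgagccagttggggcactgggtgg
Foxa1: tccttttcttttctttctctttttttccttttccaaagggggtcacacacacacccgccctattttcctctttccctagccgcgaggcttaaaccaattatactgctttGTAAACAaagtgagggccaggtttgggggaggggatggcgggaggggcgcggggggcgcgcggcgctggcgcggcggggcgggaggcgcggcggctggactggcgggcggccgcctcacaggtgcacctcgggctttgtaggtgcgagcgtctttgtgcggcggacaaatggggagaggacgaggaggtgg
Foxa2: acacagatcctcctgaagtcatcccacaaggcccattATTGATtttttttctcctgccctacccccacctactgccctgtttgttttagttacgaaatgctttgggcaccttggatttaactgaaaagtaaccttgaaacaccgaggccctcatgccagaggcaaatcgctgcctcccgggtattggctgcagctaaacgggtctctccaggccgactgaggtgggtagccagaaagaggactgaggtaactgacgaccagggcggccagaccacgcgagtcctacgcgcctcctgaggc

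The Foxa1 promoter was the only one of the 9 with the FOXA letters, which lay at position -141 from the start, on the opposite strand. Over all 32851 promoters, 3.65% held them. The Foxa2 promoter shown was the only one with the Onecut letters, at position -213, against 7.54% of all promoters. The letters TTGCNNAA, a C/EBP core, were in 0 of the 9 and in 10.8% of all, and the T-box letters GGTGTGA were in 0 of the 9 and in 3.98% of all. TATAAA was in 4 of the 9 promoters, those of Cebpa at -30, Foxa3 at -36, Prox1 at -34 and a downstream start of Foxa2 at -208, against 13.6% of all promoters. The Prox1 and Foxa2 matches lay on the opposite strand, those of Cebpa and Foxa3 on the strand of the gene. GC content ranged from 51.7% to 73.0% in the 9 member promoters, with a median of 52.7% over all promoters. The Onecut1 promoter was the richest in GC and held 38 CpG dinucleotides, against a median of 7 over all promoters, and that of Cebpa held 29.

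The members spanned a wide range of levels. Cebpa stood highest and Tbx3 lowest, and 5 of the 8 lay above 1 CPM, or 62.5%, beside 55.4% of the 15887 rows that had reads and a known transcript length. The median average log2 CPM was 3.48 for the members and 0.65 for those rows. Reads summed over the livers were estimated from each average, since genes without reads sat at 1 common lowest value and genes with a single read 1 step above it. Intervals of 95% below are exact Poisson intervals of these sums and cover counting error only. The error of estimating a sum from an average is not included, and it can matter for the narrow intervals of the highest genes.

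Cebpa, a basic leucine zipper factor, had an average of 179 CPM (log2 7.49), or about 28215 reads over the 12 livers (95% interval 27887 to 28546). Onecut2, a homeobox factor with a cut domain, followed with 66.8 CPM (log2 6.06) and about 10505 reads. Prox1, a homeobox factor, had 40.2 CPM (log2 5.33) and about 6315 reads. These 3 genes together with Foxa1 held nearly all reads of the set. Cebpa alone took 57.3% of the members' summed CPM, Onecut2 21.3%, Prox1 12.8% and Foxa1 5.94%. These are shares of reads, which grow with transcript length, and Onecut2 has the longest transcript of the set (16234 bases).

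Foxa1, a forkhead factor, had 18.7 CPM (log2 4.22) and about 2921 reads (2816 to 3029). Onecut1 had 6.70 CPM (log2 2.74) and about 1032 reads (970 to 1097). The remaining members were low. Foxa3 had 0.977 CPM (log2 -0.03) and about 130 reads (109 to 154), and Foxa2 had 0.597 CPM (log2 -0.74) and about 70 reads (54.6 to 88.4). Tbx3, a T-box repressor, had 0.273 CPM (log2 -1.87), of which 0.152 CPM is the value the table gives to a gene without reads. Its estimated sum was 19 reads (11.4 to 29.7), or 0.121 CPM. No 2 neighbours in this order had overlapping counting intervals, but the spread between livers was not measured here, so the order is that of the pooled averages only.

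**Figure D1:**
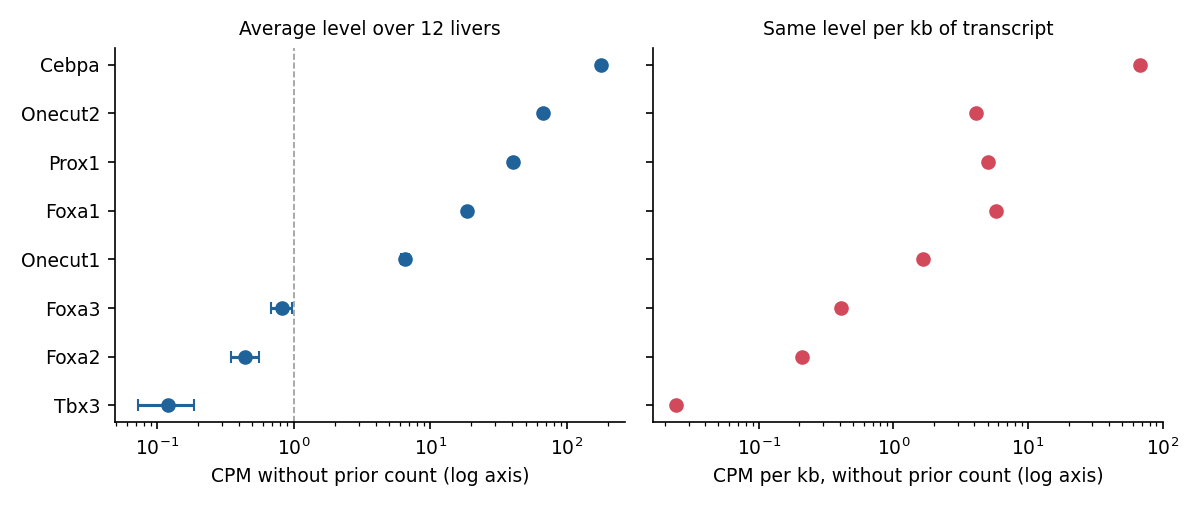
Average levels of the 8 members over 12 livers after the prior count was removed, in CPM (left, bars are 95% Poisson intervals of the estimated reads, dashed line at 1 CPM) and in CPM per kb of the longest transcript (right), both on log axes. Cebpa is highest on both scales, Onecut2 drops from rank 2 in CPM to rank 4 per kb, and Foxa3, Foxa2 and Tbx3 lie below 1 CPM.

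Levels of different genes were compared per kb of the longest annotated transcript, with the averages as deposited. On this scale Cebpa (2626 bases) had 68.3 CPM per kb and lay at percentile 94.9 of the rows with reads. Foxa1 (3191 bases) had 5.86, Prox1 (7913 bases) had 5.08 and Onecut2 (16234 bases) had 4.12 CPM per kb, at percentiles 74.0, 72.5 and 70.5. Onecut2, with the longest transcript of the set, thus moved from rank 2 in CPM to rank 4 per kb. The distance between these 3 genes depended on the length used, since with mean transcript length Foxa1 had 10.4, Prox1 8.42 and Onecut2 4.12 CPM per kb. Onecut1 (3957 bases) had 1.69 CPM per kb, at percentile 61.0. Foxa3 (2037 bases) had 0.480 and Foxa2 (2128 bases) 0.281 CPM per kb, at percentiles 47.0 and 39.4. Tbx3 (4982 bases) had 0.0548 CPM per kb, at percentile 9.06, and 0.0242 CPM per kb once the prior count was removed. Without division by length Tbx3 lay at percentile 23.9. The order per kb was the same with mean transcript length, with merged exons and with the prior count removed.

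Within the Foxa family, which is complete in the set, Foxa1 held 93.6% of the family's reads, Foxa3 4.16% and Foxa2 2.24%. Per kb, and with the prior count removed, Foxa1 was 14.3 times Foxa3 (95% counting interval 12.0 to 17.2) and 27.8 times Foxa2 (22.0 to 35.8). Foxa3 was 1.94 times Foxa2 (1.44 to 2.63). With mean transcript length in place of the longest, Foxa1 was 25.4 times Foxa3, and Foxa3 was 1.33 times Foxa2. Among the 44 forkhead genes listed in the table, a group added after the values were seen, Foxa1 ranked 5 per kb, behind Foxo4, Foxm1, Foxk1 and Foxj2, while Foxa3 ranked 13 and Foxa2 15. These ranks used the averages as deposited, with the prior count included.

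Reads inside stretches that paralogs share cannot tell the genes apart. The longest run of bases shared by the Onecut1 and Onecut2 transcripts was 26 bases, and Onecut1 shared 50 coding bases with Onecut3, the third gene of the family. Cebpa and Cebpb shared 29 coding bases. The limit holds for the Foxa genes as well, whose shared runs are not reported here. How reads inside such runs were assigned is not given in the sources used here.

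In the Onecut family, Onecut2 took 91.1% of the reads of the 2 members and Onecut1 8.95%. Per kb, Onecut2 was 2.48 times Onecut1 (2.33 to 2.65), against 10.2 times in reads, and with mean transcript length it was 1.62 times. Onecut3 had about 17 reads and 0.260 CPM, so that Onecut1 was 73.3 times as high per kb (45.5 to 126), or 112 times with mean transcript length. Exons of Gm20649 cover 52.8% of the exonic bases of Onecut1, and the intervals of these Onecut1 ratios do not allow for reads of that gene.

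Cebpa was the highest of the 5 C/EBP genes examined. Per kb it was 3.39 times Cebpg (3.32 to 3.46), 4.79 times Cebpe (4.61 to 4.99), 6.05 times Cebpb (5.81 to 6.30) and 22.3 times Cebpd (21.2 to 23.4). With mean transcript length it was 1.51 times Cebpg and 13.6 times Cebpd. Cebpe, a factor of late granulocyte differentiation, had 17.8 CPM beside 17.1 CPM for Cebpb, a factor of the acute phase response. Cebpa is itself active in myeloid progenitors, and the myeloid markers read 759 CPM for Mpo, 438 CPM for Lyz2, 112 CPM for Elane and 0.684 CPM for Csf1r. The part of myeloid cells in the level of Cebpa was not tested.

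Prox1 was 2.98 times Prox2 per kb (2.77 to 3.21), with about 820 reads for Prox2. Prox1 also marks lymphatic endothelium. Of the 4 lymphatic endothelial markers, 3 had a row, and Lyve1 read 151 CPM, Flt4 59.5 CPM and Pdpn 3.16 CPM. Lyve1 and Flt4 are carried by sinusoidal endothelium too, and the part of endothelial cells in the Prox1 level was not tested.

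Tbx3 lay below its relatives Tbx2 and Tbx5. Tbx2, its closest relative, had 9.47 CPM and about 1467 reads, and was 106 times Tbx3 per kb (67.7 to 177), or 66.8 times with mean transcript length. Tbx5 had about 35 reads and was 2.33 times Tbx3 per kb (1.296 to 4.31), and Tbx4 had about 1 read. Among 17 T-box genes in the table, a group added after the values were seen, 3 lay above 1 CPM (Tbx2, Tbx20 and Tbx15), beside 10171 of all 30743 rows. Tbx3 ranked 12 of the 17 per kb. That rank used the averages as deposited, in which the prior count makes up part of the Tbx3 value. Tbx3 is also active in mesenchyme and mesothelium, and all 6 mesenchymal markers lay above 1 CPM, from 2.90 CPM for Lhx2 to 712 CPM for Col3a1. Of the 3 mesothelial markers, Upk3b read 21.3 CPM, Wt1 1.14 CPM and Msln 0.171 CPM. Their part in the Tbx3 level was not tested.

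**Figure D2:**
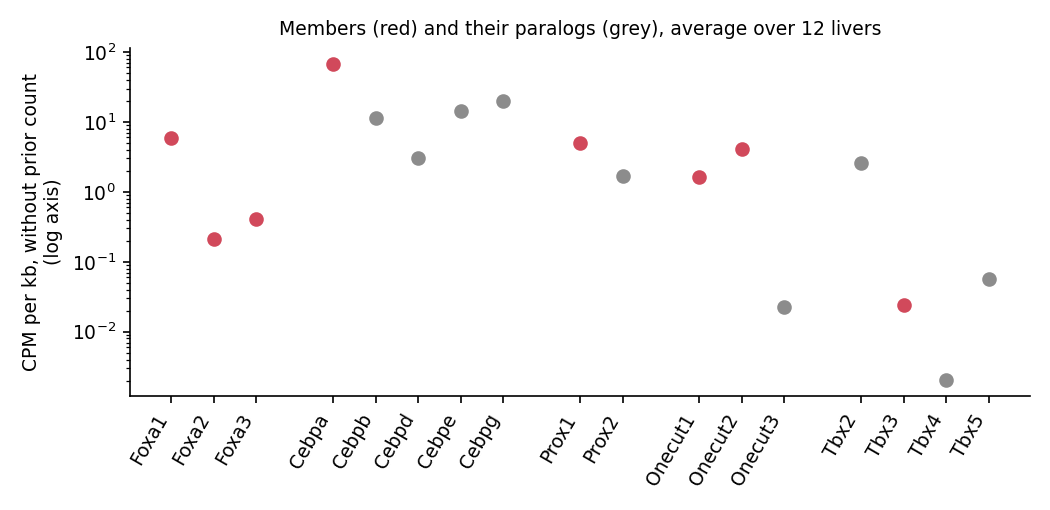
Level per kb of the longest transcript (log axis, prior count removed) of the 8 members (red) and their paralogs (grey), grouped by family, as averages over 12 livers. Cebpa, Foxa1, Prox1 and Onecut2 lead their families, while Tbx3 lies below Tbx2 and Tbx5.

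Other liver transcription factors, a list of 28 genes that excludes the members, had a median average log2 CPM of 1.67. Of these, 18 (64.3%) lay above 1 CPM, beside 10171 of all 30743 rows. The highest per kb were Creb3l3, a factor of fasting metabolism, at 42.0 CPM per kb, Rxra, the common partner of nuclear receptors, at 41.7, Foxm1, a factor of the cell cycle, at 40.7, and Cebpg at 20.2. Only Cebpa among the members exceeded these 4. Hnf4a and Xbp1 were listed without reads. Over the 12 libraries, 3 reads would give 0.0190 CPM, about the 1-sided 95% upper limit for a count of 0. That limit covers counting error only and does not bound expression in the liver. Hnf4a is a central hepatocyte regulator that shares its enhancers with Foxa and C/EBP factors, and its row did not reach the level of a single read.

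Known target genes of these factors in hepatocytes are listed next. Of 18 listed, 17 had a row and 12 of these lay above 1 CPM, with a median average log2 CPM of 6.42. Alb (albumin) had 31128, Afp (alpha-fetoprotein) 26430, Apoa1 4924 and Apoa2 4346 CPM per kb, far above every member. Below 1 CPM were Tdo2, G6pc, Pck1, Serpina1b and Serpina1a, with about 42, 30, 29, 24 and 5 reads. Among the hepatoblast and hepatocyte markers, Alb, Afp, Ttr and Apoa1 showed the labelled tissue, while Dlk1 read 1.47 CPM and Hnf4a had no reads. Of the 5 bile duct markers, 4 lay above 1 CPM, from 2.96 CPM for Sox9 to 7.05 CPM for Krt7, and Spp1 had about 2 reads. Of the erythroid markers, Klf1 and Gata1 read 692 and 367 CPM, while Alas2 read 0.704 CPM. Of the macrophage markers, Marco and C1qa read 208 and 82.6 CPM, and Cd68 had about 9 reads. Of the 5 pancreas and gut markers, where Foxa1, Foxa2 and Foxa3 are active as well, Cel alone lay above 1 CPM, at 1.80 CPM. Their part in the Foxa levels was not tested.

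**Figure D3:**
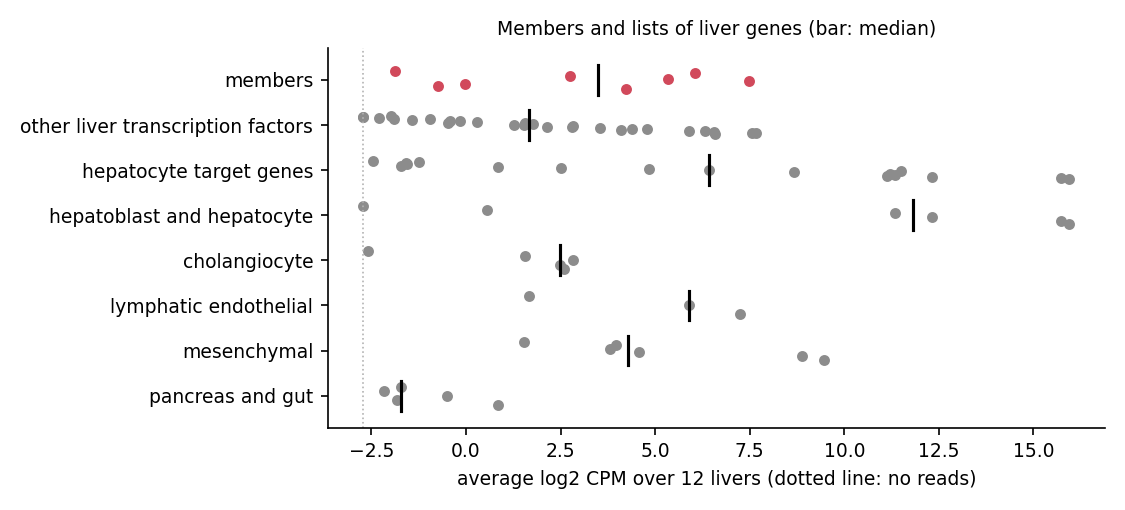
Average log2 CPM over 12 livers of the 8 members (red) and of lists of other genes (grey), pancreas and gut markers among them. Each list has 1 point per gene, and a gene in several lists appears in each. The median is a black bar and the value of genes without reads a dotted line. The members lie between 7.49 and -1.87, and the hepatoblast and hepatocyte markers fall into 4 genes above 11 and 2 at or below 0.56.

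The absence of reads in genes that define the tissue limits what a low value in this table can show. Pecam1, an endothelial gene, was also listed without reads, while Cdh5, another endothelial gene, read 144 CPM. Among genes that every cell uses, named after their values were seen, Gapdh read 5.20, Rps3 23.1 and Rpl3 27.7 CPM, while Actb read 2581, Gpx1 4470 and Eef1a1 5951 CPM. A low value of a member here is thus a low value in this table, and low expression in the liver was not shown by it.

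High levels were less frequent among genes with several RefSeq mRNA records, a split made after these values were seen. Of 11196 protein-coding genes with 1 record, 15.7% lay above 64 CPM. The share was 6.98% of 3597 genes with 2 records, 4.87% of 1623 with 3 and 3.64% of 1840 with 4 or more. At the lower threshold of 1 CPM the fall was smaller, with 48.6%, 42.8%, 38.1% and 38.4% of these genes above it, and the median average log2 CPM was -0.26, -0.72, -1.07 and -0.93. Rows without reads did not follow this order, with 24.3% of the genes with 1 record and 17.6% of those with 4 or more. Hnf4a has 3 records, Xbp1 2 and Pecam1 4. Of the genes that every cell uses, Rpl3 and Rps3 were low with 1 record each, Gapdh was low with 2, and Gpx1 was high with 3.

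The members did not fall into a single order by this count. Of the 4 members with 1 record, Onecut2, Foxa1 and Onecut1 lay above 1 CPM and Foxa3 below it. Tbx3 and Prox1 have 2 records each, Foxa2 has 3, and Cebpa, the highest member, has 5. The median average log2 CPM was 3.48 for the 4 members with 1 record and 2.29 for the 4 with several. For the other liver transcription factors these medians were 3.96 for 12 genes with 1 record and -0.29 for 16 with several. The part of annotation in the levels of Foxa2 and Tbx3 was not tested.

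**Figure D4:**
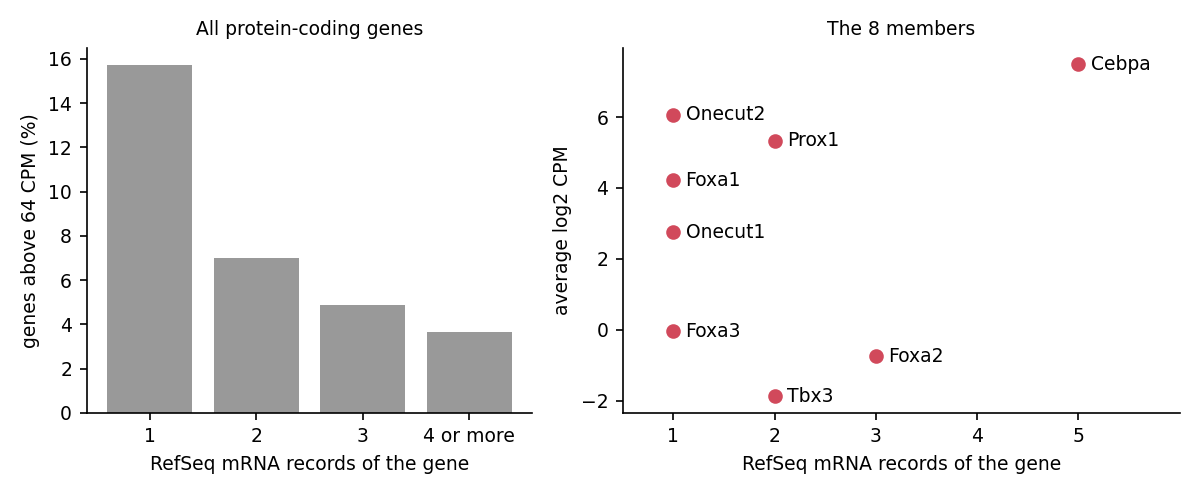
Share of protein-coding genes above 64 CPM by number of RefSeq mRNA records (left, bars) and average log2 CPM of the 8 members against the same number (right, points). The share falls from 15.7% with 1 record to 3.64% with 4 or more, and among the members Cebpa, with 5 records, is the highest.

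On GRCm38 with GENCODE M21, Cebpa lies on chromosome 7 from 35119293 to 35121928, Foxa3 on chromosome 7 from 19013284 to 19023538 and Foxa1 on chromosome 12 from 57540628 to 57546916. Foxa2 lies on chromosome 2 from 148042877 to 148046969, Prox1 on chromosome 1 from 190118035 to 190170714, Tbx3 on chromosome 5 from 119670669 to 119684724, and Onecut1 on chromosome 9 from 74861921 to 74891781. Onecut2 lies on chromosome 18 from 64340020 to 64400987. Exons of another gene cover 52.8% of the exonic bases of Onecut1, those of Gm20649. For Cebpa (Gm45091), Prox1 (Prox1os) and Tbx3 (Tbx3os1) the share was 1.93%, 1.59% and 1.74%, and it was 0 for the other 4 members. The library kit does not mark strand, so reads in shared bases cannot be assigned to 1 gene by strand, and the Onecut1 level is uncertain for that reason.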

How the data were processed

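Whole livers of 12 male fetuses, 6 per diet, were sequenced as polyA RNA with an unstranded kit. The submitters' processing notes name cutadapt 1.2.1, Subread 1.3.6-p1 and build mm10, and the authors compared the diets with edgeR. The tool that counted reads per gene and the normalization are not given in the sources used here. The authors deposited 1 table of 30743 gene symbols with 11 columns. Besides the symbol and 2 columns of average log2 CPM, identical in every row, it holds log2 fold changes, p-values, adjusted p-values and signed fold changes of the diets for a common and a tagwise dispersion. These results of the authors' own comparison were not used, and the planned test of the diets, which needs a value for each liver, was not run. The members and gene lists were chosen with earlier results of these data known.

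From the deposited log2 averages, 11091 rows sat at the lowest value (-2.71) and 1267 rows 1 step above it. That step gave a prior count of 2.00 per library, and the lowest value gave a mean effective library size of 13129748 reads. Estimated reads were the average CPM times this size over 12 libraries, less the prior count. Of 3149 rows with 1 to 5 estimated reads, 100.0% were within 0.1 of a whole number. The 1267 rows 1 step above the lowest value were among them and had set the prior count, so they are no independent check. Larger sums were not checked in this way. The script was tested on simulated data. Lengths and positions came from GENCODE M21 (21063 symbols matched), and RefSeq records and promoters from GRCm38.p6. Named genes were the members, their paralogs, the 4 highest genes per kb of each further list and those without reads. Genes outside that rule were named after their values were seen. One marker of the lists is not reported here. Marker lists were given as a check of the tissue and beside the members they touch. Scripts ran in Python 3.11.15 with scipy 1.17.1, matplotlib 3.10.9, pandas 2.3.3 and numpy 2.4.6.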

Additional observations from a re-analysis of the deposited data

How the results depend on the processing

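No paired analysis was possible because the labels match no control fetus to an HFD fetus and values of single livers were not used. For the same reason the alternatives planned for the comparison of the diets (DESeq2 size factors, no filter on low counts, the DESeq2 Wald test and leaving out each liver) were not run. The number of members above 1 CPM was 5 of 8 with the prior count removed and in the other average column. Neither alternative could have changed it. The 2 average columns were identical in every row, and the lowest member above 1 CPM, Onecut1 at 6.70 CPM, lay far above the 0.152 CPM of a gene without reads. The median level of the members, 2.91 CPM per kb with the longest transcript, was 3.36 with mean transcript length and 2.87 with merged exons. The median percentile of the members, 65.7 among rows with reads, was 64.8 among protein-coding genes, 39.8 among rows above 1 CPM and 69.8 without division by length. Split by RefSeq mRNA records, an alternative chosen after seeing the data, the median log2 CPM of 3.48 was 2.29 for members with several records. For single members, a level per kb counted as moved when it left the counting interval around its deposited value. It moved in 6 of 8 with mean transcript length and in 3 of 8 with merged exons. With the prior count removed it moved in 3 of 8, Foxa3 to 0.405, Foxa2 to 0.209 and Tbx3 to 0.0242 CPM per kb. The estimated reads and their intervals given above correspond to these lower values. Depth limits the lowest members: Tbx3 rests on about 19 reads.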

Other observations

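Among the 44 forkhead genes in the table, 36 had reads and 12 lay above 1 CPM. Of all 30743 rows, 19652 had reads and 10171 lay above 1 CPM. The highest per kb were Foxo4, a target of insulin signalling, at 132 CPM and 41.7 CPM per kb, and Foxm1, which drives mitotic genes, at 189 CPM and 40.7 CPM per kb. Foxk1 read 91.1 CPM (12.3 per kb) and Foxj2 32.7 CPM (6.19 per kb). Foxo1, another insulin-regulated factor, read 44.8 CPM and, at 5.17 CPM per kb, lay next below Foxa1. These genes were chosen after the levels were seen, and their values are averages over both diets.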
